A study of Mus musculus with 18 samples.

Results

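Ribosome biogenesis genes were followed in mouse colon by RNA sequencing of 18 libraries, as the rows of the deposited gene table that list the KEGG pathway Ribosome biogenesis in eukaryotes and do not also list the pathway Ribosome. That rule took 84 genes of the 35405 in the table. Another 30 of the 114 rows that list the pathway carry both pathway names and were left out. The libraries were made from polyadenylated RNA of colon tissue and fall into 3 labelled groups of 6, named IBC, TNBS and vector. IBC stands for isobavachalcone, a plant compound named in the title of the study. TNBS is a hapten given into the colon to cause colitis in mice. The vector libraries are called control in the table. Strain, age, dose and time of sampling are absent from the labels, and so is any statement on TNBS in the animals of the IBC group. The labels also leave out whether each library came from an animal of its own, so a p-value here measures the spread between libraries. The total per library was 55669263 to 78874868 counts.

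A ribosome is assembled from ribosomal RNA, cut out of a long precursor in the nucleolus, and from ribosomal proteins. The precursor is modified by small nucleolar ribonucleoproteins (box C/D particles methylate it, box H/ACA particles turn uridine into pseudouridine), cleaved within the small-subunit processome and by RNase MRP, remodelled by GTPases and ATPases, and exported through the nuclear pore. In the intestine the crypt cells that divide make ribosomes at a high rate, and inflammation changes both the crypts and the other cells of the wall. In bulk tissue, a different share of cells of a type and a different RNA level per cell cannot be told apart.

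The 84 genes span the whole path, and 76 of them passed the filter on low counts, out of 20855 genes that did. The 8 that did not pass were the mRNA export factor homologues Nxf2 and Nxf3, the U3 snoRNA genes Snord3a, Snord3b1, Snord3b2, Snord3b3 and Snord3b4, and the snoRNA gene Gm24949. Snord3b4 had a count of up to 35, in TNBS 5, and the other 7 had at most 16 in any library. RNA selected for a poly(A) tail is not expected to hold snoRNAs. Per length, Ran was the most abundant gene, at a mean of 97.4 FPKM over the 18 libraries (fragments per kilobase of transcript and 1e6 fragments), followed by Eif6 at 77.7 and Imp3 at 52.7 FPKM. Ran is the small GTPase that drives transport through the nuclear pore, Eif6 keeps the new large subunit from joining the small one too early, and Imp3 belongs to the MPP10 complex of the processome. The lowest means were those of Nxf3, at 0.0034 FPKM, Gm24949, at 0.0068 FPKM, and Nxf2, at 0.0269 FPKM. By role, the late large-subunit factors had the highest median level, 48.5 FPKM over 3 genes, then the box H/ACA particle, 20.7 FPKM over 4 genes. The RNase MRP and RNase P proteins and RNA were much lower, with a median of 2.62 FPKM over 10 genes.

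The promoters of 4 genes are printed because these genes had the smallest p-values among the members that were higher in TNBS libraries and hold at least one of 2 motifs searched. Each is the RefSeq window of 300 bases, 250 before and 50 after the start of the gene, on build GRCm38.p6, written 5′ to 3′ on the strand of the gene. Capitals mark the E-box CACGTG, the site of Myc and other basic helix-loop-helix factors, or the ETS core CCGGAAG, read as CTTCCGG on the other strand. The windows lie at chr5:129019906-129020205 for Ran (plus strand), chr11:51619523-51619822 for Nhp2 (plus strand), chr15:82047549-82047848 for Snu13 (minus strand) and chr1:34439579-34439878 for Imp4 (plus strand).
Ran: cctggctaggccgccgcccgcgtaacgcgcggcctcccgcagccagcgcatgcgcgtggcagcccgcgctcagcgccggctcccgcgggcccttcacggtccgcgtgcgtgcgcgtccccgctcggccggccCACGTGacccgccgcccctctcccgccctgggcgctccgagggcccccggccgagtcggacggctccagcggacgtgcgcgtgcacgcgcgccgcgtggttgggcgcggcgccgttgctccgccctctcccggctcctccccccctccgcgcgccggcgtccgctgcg
Nhp2: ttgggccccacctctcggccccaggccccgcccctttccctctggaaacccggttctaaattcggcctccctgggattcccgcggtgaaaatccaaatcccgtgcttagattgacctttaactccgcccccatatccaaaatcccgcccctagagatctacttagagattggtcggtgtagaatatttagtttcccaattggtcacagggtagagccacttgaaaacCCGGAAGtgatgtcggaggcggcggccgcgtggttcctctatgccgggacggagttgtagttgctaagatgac
Snu13: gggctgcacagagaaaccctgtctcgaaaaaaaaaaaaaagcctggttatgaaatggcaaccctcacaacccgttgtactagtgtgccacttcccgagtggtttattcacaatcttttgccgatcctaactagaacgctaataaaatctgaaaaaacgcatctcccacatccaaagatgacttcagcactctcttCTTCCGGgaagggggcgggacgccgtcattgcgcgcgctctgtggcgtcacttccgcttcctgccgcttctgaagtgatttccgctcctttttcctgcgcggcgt
Imp4: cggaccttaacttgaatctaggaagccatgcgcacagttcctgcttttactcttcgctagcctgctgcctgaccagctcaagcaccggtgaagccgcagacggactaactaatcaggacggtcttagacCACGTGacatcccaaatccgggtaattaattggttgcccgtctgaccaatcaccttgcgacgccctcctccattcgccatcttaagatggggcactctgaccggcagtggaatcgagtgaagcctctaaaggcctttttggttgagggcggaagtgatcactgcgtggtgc
The E-box of Ran ended 112 bases before its start and that of Imp4 115 bases before. The ETS core of Nhp2 lay 16 bases before the start and that of Snu13 48 bases before. Of the 84 members, 63 had a window in the RefSeq table. An E-box, on either strand since it reads the same on both, was found in 14 of these 63 genes (22.2%), against 8.09% of the 27025 genes of the table and 10.7% of the 13385 genes that were tested and had a window. The ETS core on either strand was found in 21 of the 63 (33.3%), against 9.93% of all genes of the table and 16.6% of those tested. The motifs did not overlap in the windows printed. The median log2 fold change in TNBS against vector libraries was 0.41 over the 13 tested genes with an E-box, 0.20 over the 21 with an ETS core and 0.42 over the 31 with neither. Utp14b, which was lower in TNBS libraries, also holds an E-box. A match is a stretch of letters and not a measured binding site.

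The first comparison set TNBS libraries against vector libraries. No member passed the test in TNBS against vector libraries (edgeR's quasi-likelihood test, adjusted p at 0.05 over all genes tested). Of all genes, 0.0192% passed. DESeq2 and limma on FPKM also called 0 members. DESeq2 passed more of all genes than edgeR did, as given in the last paragraph. The share of all genes in limma is not given here. The members nevertheless lay mostly on one side, with 61 of 76 higher in TNBS libraries and a median log2 fold change of 0.34, against -0.01 over all 20855 genes. At an unadjusted p under 0.05, 29 members (38.2%) were higher, against 10.4% of all genes. On the lower side there were 2 members at that limit, against 7.32% of all genes. Those were Utp14b and Xrn1. For no member did the 6 TNBS libraries lie clear of the 6 vector libraries, against 1.17% of all genes. The pathway was chosen with earlier results of these libraries known, so the counts are a description.

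**Figure D1:**
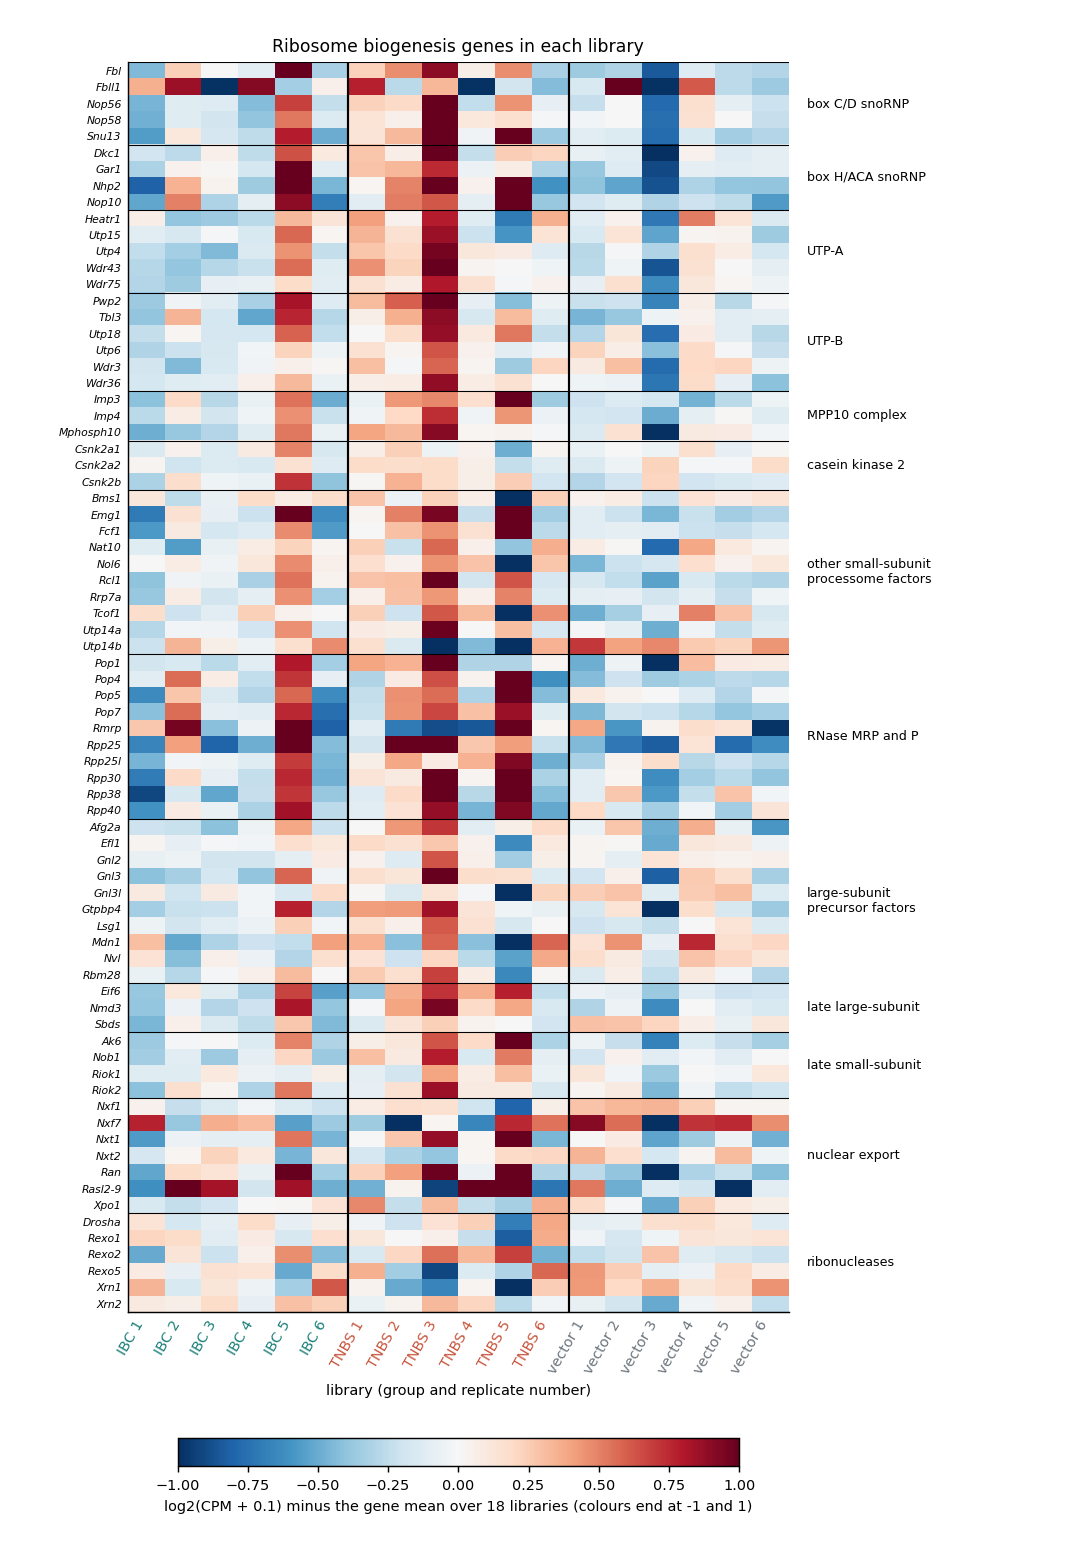
Each row is one of the 76 members that passed the filter, grouped by role, and each column is a library, with IBC, TNBS and vector libraries from left to right; colour is log2(CPM + 0.1) minus the gene's mean over the 18 libraries. TNBS 3 and IBC 5 are high and vector 3 is low across most roles, while in TNBS 5 many genes are high and others, such as Mdn1 and Bms1, are low.

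Of the core proteins of the box C/D particle, Fbl and Snu13 were among the members with the smallest p-values. Fbl, fibrillarin, the methyltransferase of the particle, had 63.3, 101 and 147 CPM in TNBS libraries (lowest, median and highest counts per 1e6 of the scaled totals), against 44.3, 64.6 and 72.4 CPM in vector libraries. Snu13, which binds the bend in the guide RNA, had 66.4, 100 and 211 CPM in TNBS libraries, against 50.04, 73.2 and 79.4 CPM in vector libraries. In both genes the TNBS median was above every vector library, and the lowest TNBS library was TNBS 6. The log2 fold change was 0.70 ± 0.23 for Fbl and 0.80 ± 0.27 for Snu13 (± SE, n = 6 each, adjusted p = 0.187 for both in edgeR). The scaffold proteins Nop56 and Nop58 were higher by 0.57 ± 0.25 and 0.46 ± 0.22. Without the library TNBS 3, Nop56 had at most 122 CPM and Nop58 at most 77.3 CPM in a TNBS library, against 223 and 160 CPM in TNBS 3 itself, and their log2 fold changes were 0.29 and 0.21. Fbll1, a fibrillarin-like gene at a mean of 0.0702 FPKM, was the 1 of 5 genes of this role that was lower, by a log2 of -0.31, which turned to 0.24 without vector 2.

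All 4 proteins of the box H/ACA particle were higher in TNBS libraries, with a median log2 fold change of 0.62, and 3 of them had an unadjusted p under 0.05. Nhp2 had 34.0, 63.4 and 153 CPM in TNBS libraries, against 28.3, 39.3 and 41.7 CPM in vector libraries. The vector libraries lay close together (37.4 ± 4.81 CPM, SD, n = 6), while the TNBS libraries spread widely (82.1 ± 47.0 CPM). Its log2 fold change was 1.13 ± 0.36 (adjusted p = 0.173 in edgeR), with 5 of 6 TNBS libraries above the vector median. Nop10 was higher by 0.69 ± 0.28, and Dkc1, the pseudouridine synthase, by 0.54 ± 0.23. Nop10 was at 0.45 without TNBS 5 and Dkc1 at 0.34 without TNBS 3. Gar1 had 23.0 ± 6.00 CPM in TNBS and 16.6 ± 3.23 CPM in vector libraries.

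The small-subunit processome cuts the precursor toward the small subunit. All 5 members of its UTP-A complex, all 6 of UTP-B and all 3 of the MPP10 complex were higher in TNBS libraries, with median log2 fold changes of 0.31, 0.42 and 0.42. Of these 14 genes, those at an unadjusted p under 0.05 were 1 of UTP-A, 3 of UTP-B and 2 of the MPP10 complex. Wdr43 of UTP-A had 49.7, 55.9 and 117 CPM in TNBS libraries and 28.0, 48.7 and 56.8 CPM in vector libraries, so its groups overlapped broadly. Heatr1, the largest UTP-A protein, had 34.9 ± 11.7 CPM in TNBS and 30.4 ± 8.19 CPM in vector libraries (SD, n = 6 each). Imp3 had 40.8, 64.8 and 118 CPM in TNBS libraries and 37.7, 45.8 and 50.4 CPM in vector libraries. Mphosph10 had 33.4 ± 9.14 CPM in TNBS and 25.1 ± 6.08 CPM in vector libraries. In UTP-B, Pwp2 was higher by a log2 of 0.54 ± 0.25 and Tbl3 by 0.44 ± 0.22. Single TNBS libraries moved several of these fold changes by more than 1.5 times. Without TNBS 3, Pwp2 was at 0.32, Tbl3 at 0.27, Wdr43 at 0.30, Heatr1 at 0.05 and Mphosph10 at 0.26, where all libraries gave 0.54, 0.20 and 0.42 for the last 3. Without TNBS 5, Imp3 was at 0.39, where all libraries gave 0.60.

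Among the other processome factors 8 of 10 were higher. Rcl1, a cyclase-like protein that early cleavage needs in yeast, had the smallest p-value of all members. Its levels were 15.2, 21.1 and 36.1 CPM in TNBS libraries, against 11.9, 14.4 and 15.5 CPM in vector libraries. All 6 TNBS libraries were above the vector median, and 4 of them were above every vector library. The log2 fold change of Rcl1 was 0.66 ± 0.20 (adjusted p = 0.164 in edgeR). Fcf1, a nuclease of early cleavage, was higher by 0.54 ± 0.21, and by 0.32 without TNBS 5. The GTPase Bms1 had 36.1 ± 10.8 CPM in TNBS and 37.4 ± 3.21 CPM in vector libraries, and Nat10, the acetyltransferase of small-subunit RNA, 33.5 ± 8.27 CPM in TNBS and 30.5 ± 7.16 CPM in vector libraries. Utp14b, a copy of Utp14a, had 2.71 to 13.97 CPM in TNBS and 12.8 to 17.9 CPM in vector libraries, while Utp14a was higher by a log2 of 0.42, and by 0.22 without TNBS 3. Casein kinase 2, whose regulatory subunit Csnk2b had 96.3 ± 12.4 CPM in TNBS and 81.8 ± 10.6 CPM in vector libraries, had a median log2 fold change of 0.01 over 3 genes.

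RNase MRP and RNase P share most of their proteins, and all 10 members were higher in TNBS libraries, with a median log2 fold change of 0.56 and 4 at an unadjusted p under 0.05. Rpp25 and Pop7 form a pair that binds the RNA. Rpp25 had the largest fold change of all members, 1.48 ± 0.48 (adjusted p = 0.177 in edgeR), at a low level of 1.35, 2.04 and 7.80 CPM in TNBS libraries and 0.853, 0.964 and 1.76 CPM in vector libraries. The top value came from TNBS 3, and without that library the log2 fold change was 0.95. Pop7 had 13.4, 20.2 and 28.4 CPM in TNBS libraries, against 11.4, 12.5 and 13.7 CPM in vector libraries, and was higher by 0.68 ± 0.24. Pop1, the scaffold, had 8.35 ± 3.94 CPM in TNBS and 6.00 ± 1.84 CPM in vector libraries, and Rpp40 7.27 ± 3.30 CPM in TNBS and 5.74 ± 0.933 CPM in vector libraries. Rmrp, the RNA of the enzyme, has no poly(A) tail and lay between 0.0448 and 1.23 CPM in TNBS libraries and between 0.0357 and 0.250 CPM in vector libraries. Its TNBS median, 0.106 CPM, was below its vector median, 0.184 CPM. It was among the 10 higher genes through TNBS 5, the library at 1.23 CPM, and without that library its log2 fold change was -0.68, where all libraries gave 0.84. Without TNBS 3, Pop1 was at 0.19 and Rpp40 at 0.18, where all libraries gave 0.48 and 0.34.

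Factors of the large-subunit precursor differed less, with 7 of 10 higher and a median log2 fold change of 0.16. Gtpbp4, a GTPase bound early, had 58.5 ± 14.97 CPM in TNBS and 41.3 ± 10.9 CPM in vector libraries and was higher by 0.50 ± 0.23. Gnl3, nucleostemin, had 61.6 ± 23.4 CPM in TNBS and 45.3 ± 11.3 CPM in vector libraries, and its log2 fold change of 0.44 was 0.20 without TNBS 3. The giant ATPase Mdn1 lay lower, with 5.57, 19.3 and 28.7 CPM in TNBS libraries and 18.1, 21.7 and 32.4 CPM in vector libraries, and the ATPase Nvl had 35.8 ± 8.38 CPM in TNBS and 39.3 ± 4.20 CPM in vector libraries. Their log2 fold changes of -0.29 and -0.14 were -0.08 and -0.03 without TNBS 5. Of the late large-subunit factors, Nmd3, the adaptor for export, was higher by 0.53 ± 0.22 and Eif6 by 0.50 ± 0.22. Sbds, which helps release Eif6, had 110 ± 12.4 CPM in TNBS and 121 ± 11.6 CPM in vector libraries.

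All 4 late small-subunit factors were higher in TNBS libraries. Ak6, an adenylate kinase of late maturation which shares its locus with Taf9, had 52.5, 72.6 and 162 CPM in TNBS libraries and 40.9, 55.7 and 63.0 CPM in vector libraries. Its log2 fold change of 0.70 ± 0.22 was 0.45 without TNBS 5. Nob1, the endonuclease that makes the end of small-subunit RNA, was higher by 0.34 ± 0.15, and by 0.22 without TNBS 3, and the kinase Riok1 had 22.3 ± 3.72 CPM in TNBS and 20.7 ± 2.39 CPM in vector libraries. Export factors were mixed, 4 of 7 higher. Ran had 217, 333 and 535 CPM in TNBS libraries, against 119, 209 and 228 CPM in vector libraries. All 6 TNBS libraries were above the vector median, and the log2 fold change was 0.89 ± 0.28 (adjusted p = 0.170 in edgeR). Rasl2-9 resembles Ran closely, and how the authors' counting split reads between them is not given. The exportin Xpo1 had 107 ± 26.7 CPM in TNBS and 102 ± 16.9 CPM in vector libraries, and Nxf1, the main mRNA export receptor, 125 ± 27.3 CPM in TNBS and 151 ± 14.8 CPM in vector libraries. The ribonucleases were the one role with a median below 0, at -0.04 with 2 of 6 higher. Xrn1, the cytoplasmic exonuclease, had 14.6 to 46.6 CPM in TNBS and 42.7 to 53.5 CPM in vector libraries. Utp14b, Utp14a, Imp4, Xrn1, Fbll1, Rmrp and Rasl2-9 were picked after their values were seen, as were Snord3a and the other genes that did not pass the filter.

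**Figure D2:**
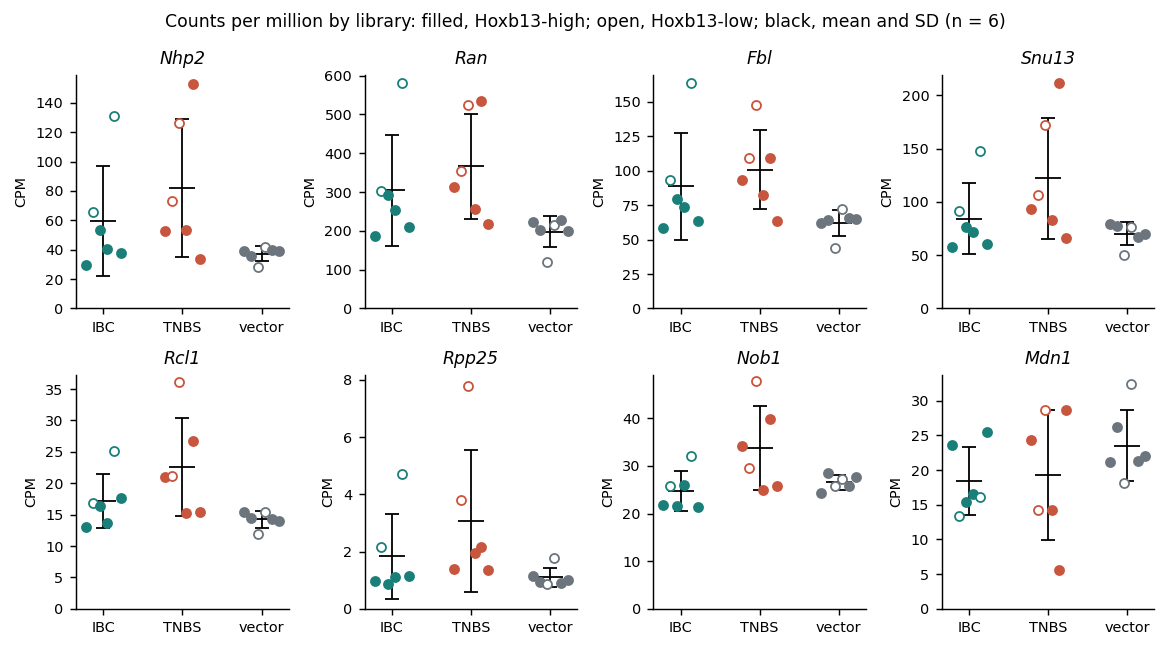
CPM of 8 members in each library, IBC, TNBS and vector from left to right; filled points are libraries high in Hoxb13, open points libraries low in it, and black marks give the mean and SD (n = 6). In the first 7 genes the vector points lie closer together than the TNBS points, and Mdn1 has its lowest point, 5.57 CPM, in TNBS 5.

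The difference was not even across libraries. The median of the 76 centred log2 CPM values of a library ran from -0.07 to 0.64 in TNBS libraries and from -0.43 to 0.04 in vector libraries. TNBS 3 was the highest, with 69 of 76 members above their own mean, and vector 3 the lowest, with 12 of 76. In vector 3 mitochondrial genes held 17.98% of counts, against 4.48% to 9.20% in the other 17 libraries. Without TNBS 3, IBC 5 and vector 3, the median log2 fold change of the members in TNBS against vector libraries was 0.13 and 17 of the 77 that then passed the filter were higher at an unadjusted p under 0.05 (22.1%, against 8.34% of all genes). Leaving out TNBS 3 alone gave 0.21 and 13 of 77 members (16.9%, against 7.72% of all genes), and leaving out vector 3 alone left 19 of 77 (24.7%, against 9.30%). The repeat without all 3 was chosen after the libraries had been seen.

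The libraries fell into 2 sets by a marker of position along the colon. Hoxb13, a homeobox gene of the distal colon, was at 123 to 598 CPM in 12 libraries, 4 of each group, and at 0 to 1.44 CPM in the other 6, 2 of each group. TNBS 3, IBC 5 and vector 3 all belonged to the low set. With the group as a covariate, 62 of 76 members were higher in the Hoxb13-low libraries, with a median log2 fold change of 0.23 against -0.01 over all genes. The medians of the low libraries were uneven, at -0.04 and 0.48 in IBC, 0.15 and 0.64 in TNBS and -0.43 and 0.04 in vector libraries. No repeat of this contrast without TNBS 3, IBC 5 and vector 3 is given here. Among the 12 Hoxb13-high libraries the members' median in TNBS against vector was 0.17 with 58 of the 77 tested there higher, and 8 were higher at an unadjusted p under 0.05 (10.4%, against 7.03% of all genes in the same fit). Among the 6 Hoxb13-low libraries it was 0.58 with 63 of 76 higher, 22 of them at that limit (28.9%, against 6.29% of all genes). A test of the difference between the sets (an interaction term in edgeR) called 0 members in TNBS against vector, where 0% of all genes passed. For IBC against TNBS it called 0 members, against 0.00959% of all genes, and for IBC against vector 0 members, against 0.0048%. At an unadjusted p under 0.05 that interaction took 5 of 76 members in TNBS against vector, against 4.56% of all genes, 1 in IBC against TNBS, against 4.48%, and 17 in IBC against vector, against 11.98%.

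**Figure D3:**
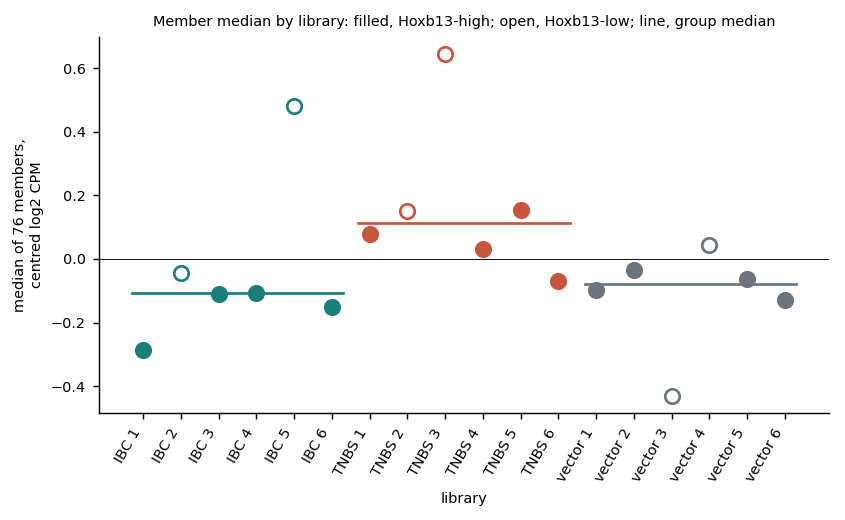
Each point is a library and shows the median of its 76 centred log2 CPM values, with IBC, TNBS and vector libraries from left to right; filled points are high in Hoxb13, open points are low, and lines are group medians. IBC 5 (0.48), TNBS 3 (0.64) and vector 3 (-0.43) stand apart from the other libraries of their groups, and all are open points.

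Transcript length moved with the result. The 15 members whose longest GENCODE M21 transcript has up to 1500 bases were all higher in TNBS libraries, with a median log2 fold change of 0.60. Of the 1323 tested genes of that length at 10 CPM or more, 1148 were higher too. The 20 members of 1501 to 3000 bases had a median of 0.38, the 31 of 3001 to 6000 bases 0.29, and the 10 longer ones 0.04. All tested genes at 10 CPM or more showed the same order at a lower level, with medians of 0.41, 0.19, -0.04 and -0.25 in the same bins. Across the 76 members the Spearman correlation of fold change with length was -0.51, and across 10493 genes it was -0.52, as a description over genes that share the libraries. The gap between short and long members was widest in TNBS 5. There the short members had a median centred log2 CPM of 1.17 and the 41 members over 3000 bases -0.31, while in TNBS 3 both were at 0.63. Genes outside the pathway in TNBS 5 had medians of 1.03 up to 1500 bases and -0.99 over 6000 bases. With length as an offset in the fit, a repeat added after seeing this, the members' median log2 fold change was 0.31, with 66 of 76 higher and 31 at an unadjusted p under 0.05 (40.8%, against 10.9% of all genes). In that fit Nhp2 was higher by 0.86, Ran by 0.82, Fbl by 0.63 and Rcl1 by 0.54, while Mdn1 was at 0.14, Nvl at 0.22 and Bms1 at 0.03, on the other side of 0. What set the length pattern was not tested.

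**Figure D4:**
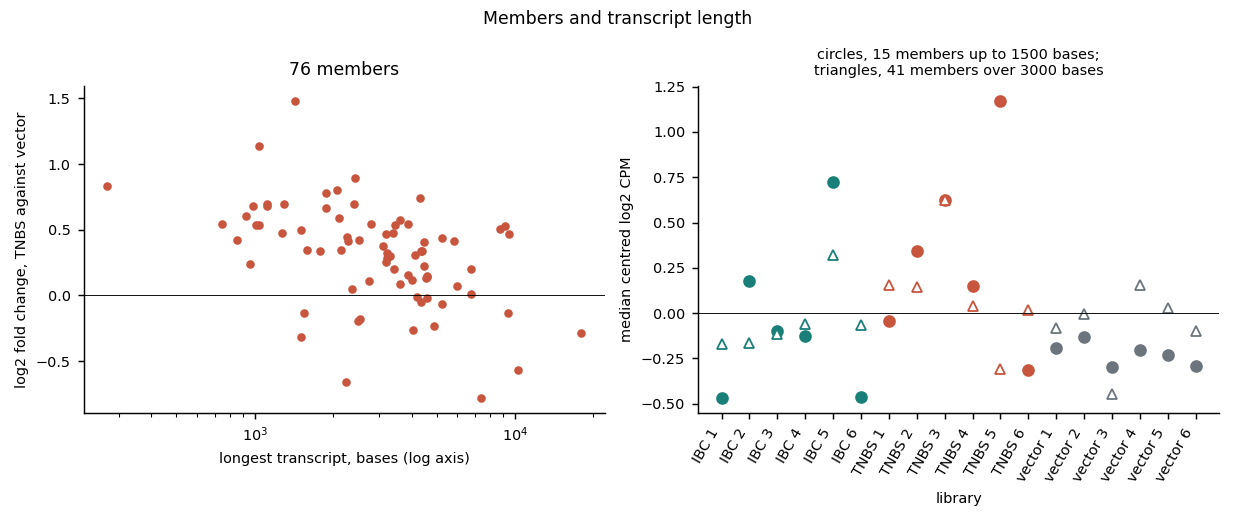
Left, the log2 fold change of each of the 76 members in TNBS against vector libraries over the length of its longest transcript (log axis). Right, for each library with IBC, TNBS and vector from left to right, the median centred log2 CPM of 15 members up to 1500 bases (circles) and 41 members over 3000 bases (triangles); in TNBS 5 the circle is at 1.17 and the triangle at -0.31.

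How members moved together was read within each set of libraries, after the mean of each group in the set was taken out. In the 6 Hoxb13-low libraries the correlation of a member with the median of the others had a median of 0.93, and 59 of 76 were over 0.5, against 29.4% of all genes. In the 12 Hoxb13-high libraries the median was 0.33 and 30 of 76 were over 0.5, against 19.7% of all genes. In those 12, Fbl (0.89) and Ran (0.79) followed the others most closely. The lowest values were those of the ribonucleases Rexo1 (-0.73), Xrn1 (-0.71) and Drosha (-0.69), followed by Nvl (-0.68) and Mdn1 (-0.67). The longest transcript of each of these low genes has more than 3000 bases, while those of Fbl and Ran are shorter. The Hoxb13-high set includes the library with the widest gap between short and long members, given above. The part of transcript length in these correlations was not tested. In the Hoxb13-low libraries Mdn1 was at 0.92 and Nvl at 0.91. With 2 Hoxb13-low libraries in each group, the deviations of the 2 mirror each other. The correlations in that set therefore rest on a single difference per group, and high values come easily. They cannot be compared with those of the Hoxb13-high set. These values are descriptions over libraries that share their depth.

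The second comparison set the isobavachalcone libraries against the TNBS libraries. No member passed the test in IBC against TNBS libraries, and 0% of all genes did (edgeR). DESeq2 called 0 members as well, and its share of all genes in this comparison is not given here. Here 63 of 76 members were lower in IBC libraries, with a median log2 fold change of -0.25, against 0.00 over all genes. At an unadjusted p under 0.05, 5 members were lower, against 2.22% of all genes, and 0 were higher, against 1.71%. No member had groups without overlap, against 0.149% of all genes. The comparison shares its TNBS libraries with the first one, so the opposite signs are not separate evidence. Transcript length moved with this result too, with a Spearman correlation of 0.36 across the 76 members and 0.49 across 10493 genes. Up to 1500 bases the median log2 fold change was -0.36 over 15 members and -0.29 over 1323 genes at 10 CPM or more. From 6001 bases it was -0.14 over 10 members and 0.12 over 1544 such genes. What set this pattern was not tested.

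The 5 genes were Nob1, Utp4, Fcf1, Wdr75 and Nxt1. The longest transcript of Fcf1 has 749 bases and that of Nxt1 1116 bases, while those of Nob1, Utp4 and Wdr75 are longer. Nob1 had 21.4, 23.7 and 32.0 CPM in IBC libraries, against 24.98, 31.8 and 47.8 CPM in TNBS libraries, and 24.3, 26.5 and 28.5 CPM in vector libraries. The IBC libraries other than IBC 5 lay between 21.4 and 26.0 CPM, and the groups overlapped. The log2 fold change of Nob1 was -0.45 ± 0.15 (adjusted p = 0.925 in edgeR). Utp4 of UTP-A had 26.5 ± 6.68 CPM in IBC and 35.6 ± 10.6 CPM in TNBS libraries, and Wdr75 of the same complex 32.3 ± 4.34 CPM in IBC and 40.9 ± 9.91 CPM in TNBS libraries (SD, n = 6 each). Fcf1 was lower by a log2 of -0.48 ± 0.21 and Nxt1, the partner of Nxf1, by -0.56 ± 0.27. Without TNBS 5 these were -0.24 and -0.29. Without TNBS 3, Utp4 was at -0.24 and Wdr75 at -0.19, where all libraries gave -0.42 and -0.34. For each of these genes, 5 of 6 IBC libraries were below the TNBS median, and the remaining one was IBC 5.

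By role, all members of the box H/ACA particle (4), UTP-A (5), UTP-B (6), the MPP10 complex (3), the RNase MRP and RNase P set (10) and the late factors of both subunits (3 and 4) were lower in IBC than in TNBS libraries. Their median log2 fold changes lay between -0.26 and -0.42. Nhp2 had 29.5, 46.8 and 131 CPM in IBC libraries, against 34.0, 63.4 and 153 CPM in TNBS libraries, so the ranges nearly coincided. Ran had 186, 273 and 580 CPM in IBC libraries, against 217, 333 and 535 CPM in TNBS libraries. Nop58 was lower by -0.44 ± 0.22 and Wdr43 by -0.47 ± 0.22, and without TNBS 3 these were -0.18 and -0.23. Rmrp, counted among the 10, was at -0.24 with all libraries and at 1.30 without TNBS 5. The ribonucleases had a median of 0.07, with 4 of 6 higher.

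The count of members depended on single libraries. IBC 5 had a median centred log2 CPM of 0.48 over the members, with 63 of 76 above their own mean, while the other 5 IBC libraries lay between -0.29 and -0.04. Without IBC 5 the members' median was -0.39 and 37 of the 77 then tested were lower at an unadjusted p under 0.05 (48.1%, against 7.26% of all genes). Without TNBS 3 the median was -0.09 and 1 of 77 members was lower at that limit, against 1.61% of all genes. Without TNBS 3, IBC 5 and vector 3 together, 24 of 77 members were (31.2%, against 4.88% of all genes), with a median of -0.22. In the Hoxb13-high libraries 21 of 77 members were lower at that limit (27.3%, against 5.64% of all genes) and in the Hoxb13-low libraries 0 of 76, against 0.850% of all genes, with medians of -0.22 and -0.19. No fit with a library left out passed any member at the adjusted threshold.

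**Figure D5:**
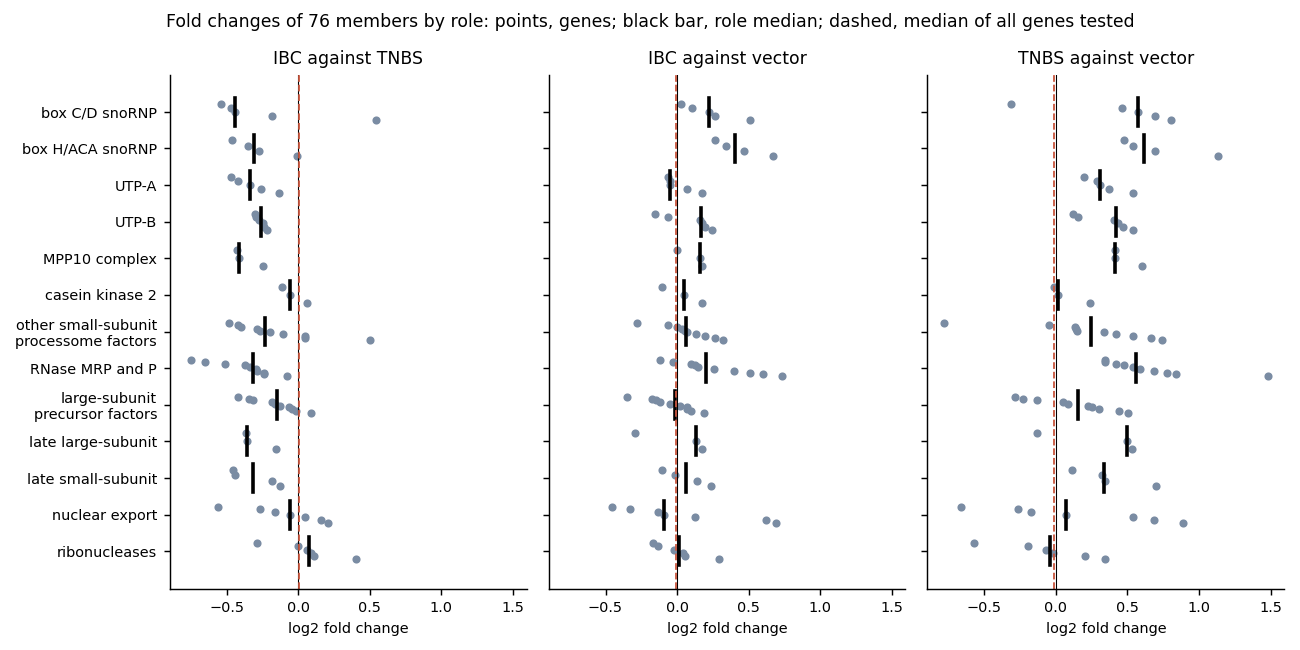
Log2 fold changes of the 76 members by role in IBC against TNBS, IBC against vector and TNBS against vector libraries; points are genes, black bars are role medians and the dashed line is the median of all genes tested. Most points lie left of 0 in the first panel, on both sides in the second and right of 0 in the third. The ribonucleases are the exception, with 4 of 6 higher in the first panel and 2 of 6 in the third.

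In the third comparison, IBC against vector libraries, no member passed in edgeR, where 0% of all genes did. DESeq2 called 0 members too, though it passed more of all genes than edgeR, as given in the last paragraph. The median log2 fold change was 0.09 with 49 of 76 higher, against -0.01 over all genes. At an unadjusted p under 0.05, 3 members were higher, against 4.9% of all genes, and 2 were lower, against 3.63%, shares near or below those of all genes. No member had groups without overlap, against 1.08% of all genes. The higher ones were Xrn2, Ran and Fbl. Xrn2, the nuclear exonuclease that trims rRNA precursors, had 76.2, 88.8 and 98.8 CPM in IBC libraries, against 56.8, 73.8 and 83.4 CPM in vector libraries, and was higher by 0.29 ± 0.12 (adjusted p = 0.499 in edgeR). All 6 IBC libraries were above the vector median. Ran was higher by 0.62 ± 0.28 over all libraries, by 0.17 in the Hoxb13-high ones, by 1.39 in the Hoxb13-low ones and by 0.33 without IBC 5. Fbl was higher by 0.51, and by 0.24 without IBC 5. The lower ones were Nxf1, with 110, 118 and 134 CPM in IBC libraries and 132, 156 and 164 CPM in vector libraries, and Sbds, with 78.8, 94.5 and 131 CPM in IBC libraries and 103, 121 and 133 CPM in vector libraries. The members' median turned to -0.04 without IBC 5, and was -0.06 in the Hoxb13-high libraries and 0.44 in the Hoxb13-low ones.

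Genes of the same path that the KEGG list leaves out were read from lists chosen with earlier results of these data known. Of 63 further assembly factors, 61 were higher in TNBS than in vector libraries, 29 at an unadjusted p under 0.05, with a median log2 fold change of 0.39, and none passed the adjusted threshold. Over all genes, 10.4% were higher in TNBS than in vector libraries at the unadjusted limit. In IBC against TNBS libraries all 63 were lower, 6 of them at that limit, against 2.22% of all genes. The RNA exosome, which trims precursor RNA, had 14 of 14 genes higher in TNBS than in vector libraries (median 0.49, 8 at that limit) and 14 of 14 lower in IBC than in TNBS libraries (2 at that limit). RNA polymerase I and its factors, which transcribe the rRNA precursor, had 12 of 15 higher in TNBS than in vector libraries (median 0.18, 3 at that limit). Binding of Myc to the members was not measured. Myc, whose product binds E-boxes, had 31.3 ± 4.22 CPM in IBC, 43.9 ± 17.4 CPM in TNBS and 29.0 ± 7.28 CPM in vector libraries. Its log2 fold change was 0.60 ± 0.23 in TNBS against vector libraries (adjusted p = 0.214 in edgeR) and -0.49 ± 0.23 in IBC against TNBS libraries (adjusted p = 0.925). Of the 9 genes of the Myc network (Myc, Mycn, Max and their partners and antagonists), 2 were higher and 7 lower in TNBS than in vector libraries, with a median log2 fold change of -0.09, and 7 were higher in IBC than in TNBS libraries, with a median of 0.10. Their summed level was 768 ± 69.9 CPM in IBC, 718 ± 165 CPM in TNBS and 872 ± 69.01 CPM in vector libraries (SD, n = 6 each). Mxd3, an antagonist of Myc, was the other gene higher in TNBS than in vector libraries, by 0.82.

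Markers of other processes and cells were read beside the members. At an unadjusted p under 0.05, 10.4% of all genes were higher and 7.32% lower in TNBS than in vector libraries. All 12 proliferation genes were higher in TNBS than in vector libraries, with a median log2 fold change of 0.71 and 9 at an unadjusted p under 0.05, and all 12 were higher in IBC than in vector libraries (median 0.63). Their summed level was 715 to 1382 CPM in IBC, 881 to 1312 CPM in TNBS and 357 to 986 CPM in vector libraries. All 7 neutrophil genes were higher in TNBS than in vector libraries, with sums of 4.71 to 126 CPM in IBC, 8.85 to 271 CPM in TNBS and 3.55 to 5.97 CPM in vector libraries, where Mmp8, S100a8 and Cxcr2 were at 0 in at least one library. Of 7 macrophage genes, 6 were higher in TNBS than in vector libraries (median 0.80, 5 at that limit), with sums of 195 to 505 CPM in IBC, 187 to 753 CPM in TNBS and 104 to 279 CPM in vector libraries. All 4 tested genes of squamous epithelium were higher (median 3.31, 3 at that limit), with sums of 3.02 to 40.2 CPM in IBC, 1.93 to 186 CPM in TNBS and 1.08 to 4.63 CPM in vector libraries. All 5 red blood cell genes were lower, each at that limit (median -1.37), with sums of 19.4 to 197 CPM in IBC, 57.2 to 171 CPM in TNBS and 129.6 to 277 CPM in vector libraries. Of the fibroblast, adipocyte, T cell, B and plasma cell and endothelium lists no gene was past that limit in this comparison. Of 7 enteric neuron and glia genes, 6 were lower (median -0.525 over the 7), with 1 at that limit. All 9 smooth muscle genes were lower in TNBS than in vector libraries (median -0.62), 4 of them at that limit. Among the 9, 1 passed the adjusted threshold (edgeR), against 0.0192% of all genes. Sums over the 9 genes were 2568 to 5243 CPM in IBC, 2012 to 4739 CPM in TNBS and 3095 to 8901 CPM in vector libraries. The 12 colon epithelium genes were detected in every library and differed little, with a median of 0.07 in TNBS against vector. In IBC against TNBS libraries the members' median log2 fold change was -0.25. Proliferation genes had a median of -0.08 there, neutrophil genes -0.13, macrophage genes -0.006, squamous genes -0.53 and smooth muscle genes 0.41. All 6 fibroblast genes were higher in IBC than in TNBS libraries, with a median of 0.59 and 0 at an unadjusted p under 0.05. In IBC against vector libraries the members' median was 0.09, where neutrophil genes had 3.76 and macrophage genes 0.80. Fibroblast genes had 1.00 there, with all 6 higher and 4 at that limit, against 4.9% of all genes. The part of these cells in the members' values was not tested.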

How the data were processed

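Polyadenylated RNA of mouse colon was sequenced from 6 libraries in each of the groups IBC, TNBS and vector, and reads were trimmed with cutadapt 1.9, per the submitters' processing notes. No aligner, counter or genome build is named in the sources used here. Per the file headers, the authors deposited a count and an FPKM value for each gene and library, and 0 value columns were left unused. A count of 4 was more frequent (19961 gene and library pairs) than 3 (9977) or 5 (6358), so 1 fragment may give several counts, and no counting error is given.

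Counts were filtered with filterByExpr, scaled by TMM and tested with edgeR 4.0.16 (R 4.3.3), two-sided, in one fit of the 18 libraries with Benjamini-Hochberg adjustment over 20855 genes at 0.05. CPM are counts per 1e6 of the scaled totals. Alternatives used DESeq2 1.42.0, limma 3.58.1 on log2(FPKM + 1) and log2(FPKM + 0.1), other filters, counts divided by 4, a replicate block, Hoxb13 sets (10 CPM as the limit), libraries left out and, added after seeing the data, transcript length as an offset and TNBS 3, IBC 5 and vector 3 left out together. The gene test was tried on simulated counts with fold changes larger than that of any member in the reported fit. That trial does not show its power for changes of the members' size. Members and lists were chosen with earlier results of these data known. Named genes were a fixed list of core factors, the 8 members with the smallest p in each comparison, members whose groups do not overlap, and the 3 highest and 3 lowest by mean FPKM. Centred log2 CPM used a prior count of 2. Promoters are from RefSeq (GRCm38.p6, matched by Entrez ID) and transcript lengths from GENCODE M21. No 2 libraries were identical (0 pairs).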

Additional observations from a re-analysis of the deposited data

Results flagged for a closer look

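Of 135 groups of 6 libraries looked at (each named member in each group, and the members' median), 44 had a highest or lowest library whose gap to the nearest other exceeded the 95% limit of Dixon's test, where chance gives about 1 in 20. The members share libraries, so these are not separate events. The values are CPM.

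IBC 5 was the highest IBC library for Ran (580), Nhp2 (131), Ak6 (92.0), Rpp25 (4.71), Fbl (164), Nop56 (144), Nop58 (99.7), Dkc1 (49.6), Gar1 (45.1), Wdr43 (75.3), Pwp2 (31.5), Mphosph10 (38.7), Pop1 (11.48), Rpp40 (10.9), Gnl3 (73.1), Gtpbp4 (80.5), Nmd3 (58.6), Utp4 (39.8) and Nxt1 (23.2). The median of the centred log2 CPM values of the members in IBC 5 was 0.48, against -0.04 in the nearest IBC library.

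TNBS 3 was the highest TNBS library for Nop56 (223), Nop58 (160), Dkc1 (65.6), Wdr43 (117), Mphosph10 (50.5), Pop1 (15.8), Gnl3 (109), Utp4 (56.5) and Wdr75 (60.8), and the members' median there was 0.64, against 0.15 in the nearest TNBS library. TNBS 5 was the highest TNBS library for Fcf1 (81.7) and the lowest for Bms1 (15.3). Among genes near 0, Nxf2 was listed above 0 in TNBS 2 alone of its group (0.256), and Gm24949 in TNBS 1 alone (0.0298).

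Vector 3 was the lowest vector library for Ran (119), Fbl (44.3), Dkc1 (12.9), Mphosph10 (13.3), Bms1 (31.2), Riok1 (16.2) and Wdr75 (22.5) and the highest for Csnk2b (103), and the members' median there was -0.43, against -0.13 in the nearest vector library. Rpp25 was highest in vector 4 (1.76). IBC 5, TNBS 3 and vector 3 all belong to the libraries low in Hoxb13, and vector 3 had 17.98% mitochondrial counts.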

How the results depend on the processing

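No member passed the adjusted threshold under any alternative run in any of the 3 comparisons. With the replicate block the members' median log2 fold change was 0.30 in TNBS against vector, -0.26 in IBC against TNBS and 0.05 in IBC against vector, and 0 members were called. The labels do not say whether a replicate number pairs libraries. Of 18 same-numbered pairs, 7 had a correlation of deviations over 0.1 (median -0.02), which cannot settle whether they are paired. The block gave 20 members higher at an unadjusted p under 0.05 in TNBS against vector, against 29 without it. The share of all genes at that limit with the block is not given here.

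In the Hoxb13-high libraries alone the median of the members in IBC against vector turned to -0.064, and it was -0.055 without TNBS 3, IBC 5 and vector 3. In the Hoxb13-low libraries alone the median was 0.58 in TNBS against vector and 0.44 in IBC against vector. Leaving out 1 library gave medians from 0.21 to 0.45 in TNBS against vector, from -0.39 to -0.09 in IBC against TNBS and from -0.039 (without IBC 5) to 0.13 in IBC against vector.

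The number of members higher at an unadjusted p under 0.05 in TNBS against vector was 8 in the Hoxb13-high libraries and 17 without TNBS 3, IBC 5 and vector 3, and 13 to 37 with 1 library left out. The number lower in IBC against TNBS, 5 in the reported fit, was 2 with limma on log2(FPKM + 1) and 2 on log2(FPKM + 0.1), 11 with the Hoxb13 set as a block, 21 in the Hoxb13-high and 0 in the Hoxb13-low libraries, 1 with only the 2 groups compared in the fit, 24 without TNBS 3, IBC 5 and vector 3, and 1 to 37 with 1 library left out. The share of all genes at that limit also changed with the fit. It is given above for the Hoxb13 sets and for some of the libraries left out. Where it is not given, a count does not tell a change in the members from a change over all genes.

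Of the genes named by the rule, those that changed sign in TNBS against vector were Bms1 (0.11 in the Hoxb13-low libraries, 0.029 with length as an offset, and -0.11 to 0.13 with 1 library left out), Sbds (0.045 in the Hoxb13-low libraries), Nvl (0.22) and Mdn1 (0.14) with length as an offset, and, without TNBS 3, IBC 5 and vector 3, Heatr1 (-0.059), Nat10 (-0.086), Xpo1 (-0.061) and Riok1 (-0.017). With 1 library left out, Xpo1 was between -0.020 (without TNBS 1) and 0.16, and it was also below 0 without vector 3. Sbds in IBC against vector was at 0.021 in the Hoxb13-low libraries. Picked after their values were seen, Rmrp (-0.68 without TNBS 5) and Fbll1 (0.24 without vector 2) also changed sign in TNBS against vector. The cause was not tested.

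Over all genes, DESeq2 passed 574 in TNBS against vector and 186 in IBC against vector, where edgeR passed 4 and 0, and edgeR with the Hoxb13 set as a block passed 142 in TNBS against vector. Of the 76 members, 10 had a mean below 10 CPM, where values are less precise. The labels do not tie libraries to animals.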
